A study of Mus musculus with 4 samples.

Results

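The endocardium is the endothelial layer that lines the chambers of the heart and faces the blood in them. It forms early in development, gives rise to the valve cushions and signals to the underlying muscle, among others through neuregulin 1 (Nrg1), a ligand of ErbB receptors on cardiomyocytes. In the adult heart it is marked by Npr3, the clearance receptor of natriuretic peptides, and it differs from the capillary endothelium of the muscle wall, which carries the genes of fatty acid uptake. Vegfa, whose product VEGF-A acts on endothelial cells through the receptors Kdr and Flt1, is the gene edited in this mouse model.

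Endocardial nuclei were sought in 4 single-nucleus RNA libraries of mouse heart, prepared with the Chromium Single Cell 5′ kit, version 2. Wild-type (WT) hearts and hearts with the Vegfa Q150X allele, made with CRISPR/Cas9 to mimic a human stop-gained variant, were sampled without injury (homeostasis) and 3 days after myocardial infarction (3dpMI), and every group is a single library. Pooling of hearts, age and sex are not given in the labels, the zygosity of the Q150X animals is not clear from them, and the tissue is given as heart with no chamber named. With 1 library in a group there is no replicate, so no test was run, and a difference between libraries cannot be told apart from one between hearts or preparations. Intervals are 95% intervals of the counts alone. They are too narrow wherever a few nuclei hold most unique molecular identifiers (UMIs) of a gene.

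A nucleus was selected if it had at least 500 UMIs and 300 genes, at most 10% mitochondrial UMIs and under 2% of UMIs from the cardiomyocyte genes Ttn, Ryr2 and Myh6. It also had to hold UMIs of at least 2 of the 6 genes Npr3, Tmem108, Smoc1, Cytl1, Cgnl1 and Bmp6, at least 1 of Pecam1, Cdh5, Emcn, Ptprb, Flt1 and Vwf, and none of the lymphatic genes Mmrn1 and Reln. Of 28128 nuclei that passed the filters, out of 28216 barcodes, 1831 were selected. WT homeostasis gave 145 of 4381 nuclei, Q150X homeostasis 334 of 6478, WT 3dpMI 804 of 9149 and Q150X 3dpMI 548 of 8120. Any pair of libraries shared at most 117 barcodes, and 0 of these were selected in both.

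The infarction libraries were deeper, with 30413471 UMIs in WT and 32657625 in Q150X against 5875965 and 9283645 at homeostasis. The median depth of the selected nuclei was 801 UMIs (WT) and 898 UMIs (Q150X) without injury and 2523 UMIs (WT) and 5074 UMIs (Q150X) at 3dpMI. Over all nuclei these medians were 934, 994, 2131 and 2860, so that at 3dpMI the selected nuclei lay above the rest of their library in depth and at homeostasis below it.

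The selection was set beside a clustering of all nuclei. Of 33 clusters, 1 was endocardial-like by its markers (Npr3, Tmem108 and Smoc1 led it, followed by Chrm3, Cdh11 and Bmx). It held 785 nuclei, of which the WT libraries gave 102 without injury and 269 at 3dpMI, and the Q150X libraries 260 and 154. Of the selected nuclei, 60% of WT homeostasis and 68% of Q150X homeostasis lay in it, but only 29.7% of WT 3dpMI and 26.3% of Q150X 3dpMI. In the other direction, 85.3% to 93.5% of the cluster's nuclei in each library were selected. The cluster takes its name from genes of the rule, so this overlap is no independent check of the label. Because most selected nuclei of the infarction libraries lay in other clusters, values are given below both for all selected nuclei and for the endocardial-like cluster.

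The nuclei outside the cluster were mainly those that only just met the rule. Nuclei with exactly 2 of the 6 genes made up 45.5%, 41.6%, 69.7% and 67.2% of the selected nuclei (WT homeostasis, Q150X homeostasis, WT 3dpMI, Q150X 3dpMI), and 27.3%, 32.4%, 7.68% and 6.25% of them lay in the cluster. Of those with 3 genes or more, 87.3%, 93.3%, 80.3% and 67.2% did. Just outside the rule, 3957 nuclei held 1 of the 6 genes, and 1.01% of these were in the cluster. Among selected nuclei outside the cluster with exactly 2 genes, the pair was Cgnl1 (a junction protein) with Bmp6 (a BMP ligand) in 67% to 80.7% of each library. Both genes are also present in other endothelium: in the other endothelial nuclei of the 4 libraries, 8.89% to 23.4% held a Cgnl1 UMI and 18.4% to 32.4% a Bmp6 UMI, against 0.387% to 1.39% for Npr3.

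**Figure D1:**
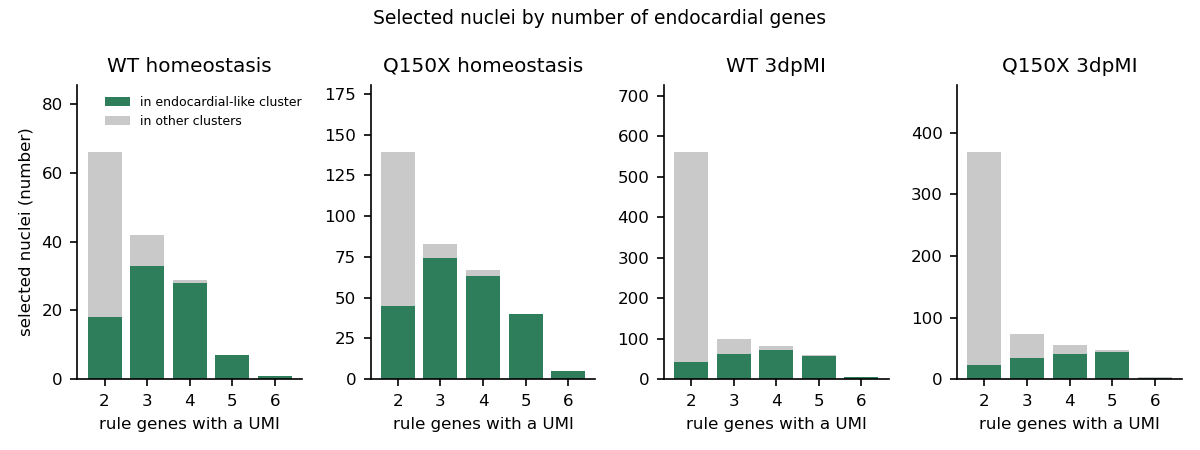
Number of selected nuclei (vertical axis, a separate scale for each library) by how many of the 6 endocardial genes of the rule had a UMI (horizontal axis). Green marks nuclei of the endocardial-like cluster and grey those of other clusters; the column at 2 genes is mostly grey in every library and is the tallest by far in the 2 infarction libraries (560 and 368 nuclei).

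By the marker genes of other cell types, the nuclei outside the cluster were a mixture. The largest group, 242 nuclei, fell in a cluster led by the capillary genes Timp4 and Aqp7, 107 in one led by Kit and Rhbdl2, 98 in one led by Selp, 69 in one that carries the pericyte genes Rgs5 and Kcnj8, and 59 in one led by cell division genes such as Diaph3. A further 112 fell in a cluster led by Dkk2 and Adamts16, 81 in one led by Atp6v0a4 and Cdh3, 71 in one led by Ms4a14 and F10, and 65 in one led by Lvrn and Nkain2. Of all nuclei in these 4 clusters, 70.7%, 2.61%, 34.8% and 46.8% were called doublets, and 27.2% in the cluster with Rgs5. Scrublet called 10.3%, 17.8%, 18.6% and 33.4% of the selected nuclei outside the cluster doublets, and 1.15%, 4.85%, 7.53% and 9.72% of those inside it, against 4.88%, 5.19%, 7.32% and 9.31% of all nuclei. The part of doublets in the results below was not tested beyond leaving the called ones out.

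The summed level of the 6 endocardial markers (Npr3, Tmem108, Smoc1, Nrg1, Cytl1 and Vwf) is a description only, since all but Nrg1 are genes of the rule and 3 of them named the cluster. In CPM, the usual scaling of a count by all UMIs of the same nuclei, it was 8620, 10343, 7434 and 9670 in the cluster and 577, 583, 337 and 381 in selected nuclei outside it, with none of the 6 at 0 in any of these sums. In other endothelial nuclei it was 108, 182, 237 and 201. The 12 fibroblast markers summed to 1705, 1675, 1716 and 1850 CPM in the cluster, with 1 of 12 at 0 in each library, but to 2343, 4498, 4514 and 4918 outside it, with 3 of 12 at 0 in WT homeostasis and 0 of 12 elsewhere. The selected nuclei as a whole had fibroblast sums of 2061 and 2853 at homeostasis and 4020 and 4542 at 3dpMI. The 12 cardiomyocyte markers summed to 4245, 5214, 3982 and 1207 CPM in the cluster, with 0 of 12 at 0, and to 2372, 5657, 3451 and 946 in other endothelium, so that Q150X 3dpMI was the lowest library in both. The part of this difference in the cluster's values was not tested. The 12 capillary markers were at 763, 682, 741 and 537 CPM in the cluster, with 0 to 3 of 12 at 0, against 6364, 3471, 2550 and 1800 in other endothelium. The 12 macrophage or monocyte markers were at 346, 567, 1333 and 1215 CPM in the cluster, with 6, 3, 0 and 0 of 12 at 0.

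**Figure D2:**
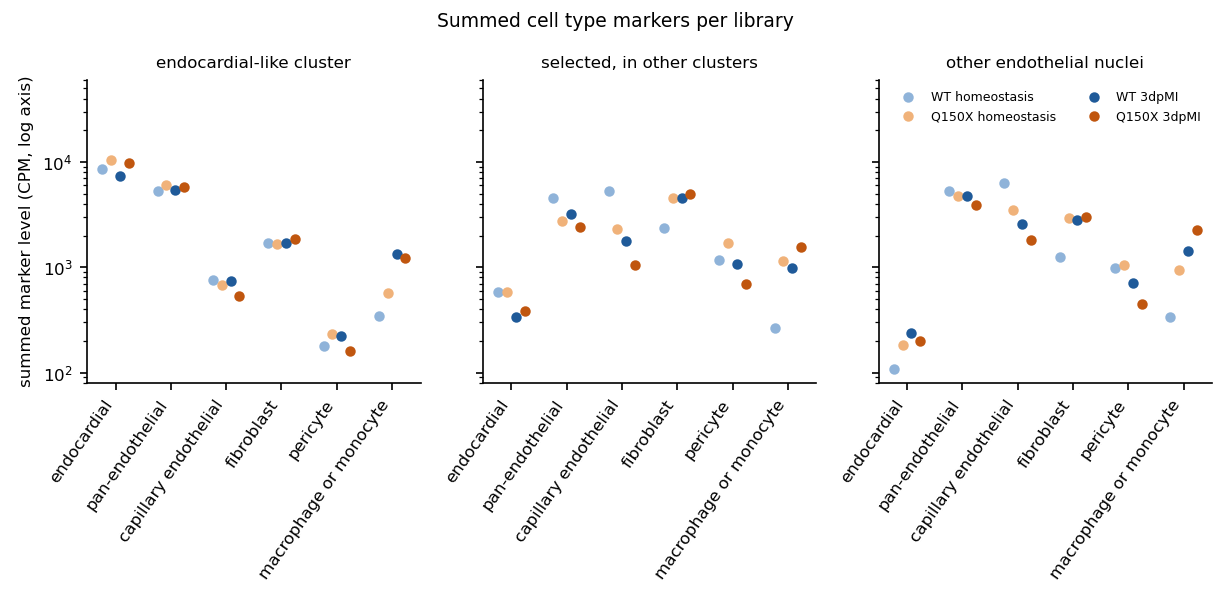
Summed level (CPM, log axis) of 6 marker lists in nuclei of the endocardial-like cluster (left), selected nuclei of other clusters (middle) and other endothelial nuclei (right), 1 point per library. Endocardial markers, mostly genes that the selection used, lie between 7434 and 10343 CPM on the left and at or below 583 in the other panels, where fibroblast and capillary markers lie above them.

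The genes named first here are those of the rule and those with the highest ratio to other endothelial nuclei. The genes of the rule are a description only. In the cluster, Tmem108, a transmembrane protein first studied in neurons, was at 3756, 3650, 3129 and 3253 CPM, and Npr3 at 1443, 2112, 1510 and 1252. Cgnl1 was at 2337, 2735, 1916 and 1914, and Smoc1, a matricellular calcium-binding protein, at 775, 726, 688 and 844. Vwf, the haemostatic von Willebrand factor, was at 1526, 1438, 1382 and 1495, so that its libraries differed little, and Bmp6 at 1061, 834, 673 and 1246. Cytl1, a small secreted protein, was sparse, with 3, 30, 27 and 11 UMIs. Over all selected nuclei the same genes were lower at 3dpMI than at homeostasis: Npr3 was at 828, 1335, 314 and 193 CPM, and Tmem108 at 1968, 2298, 622 and 527.

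Outside the rule, Nrg1 was at 88.5, 124, 15.4 and 22.5 times the level of other endothelial nuclei over all selected nuclei. In the cluster it was at 223, 200, 73.5 and 154 times that level. In WT 3dpMI the cluster ratios of Gpm6a and Cdh11 were above that of Nrg1. Cdh11, a cadherin of mesenchymal and valve cells, was at 1693, 2101, 1375 and 1634 CPM in the cluster and 19.4, 30.8, 14.3 and 23.3 in other endothelium. These are 87.1, 68.3, 96.1 and 70.2-fold ratios. Chrm3, the M3 muscarinic acetylcholine receptor, was at 1967, 3105, 1382 and 1259 CPM in the cluster against 77.7, 78.2, 21.5 and 9.46. Hmcn1, the matrix protein hemicentin 1, was at 2587, 3213, 3220 and 3893 against 219, 338, 125 and 109. Rasgef1b, a Ras family exchange factor, was at 1443, 2131, 2133 and 1617 against 16.2, 44.9, 36.7 and 60.4. In each of these 5 genes the cluster was above other endothelium in all 4 libraries. This is a description only, since the genes were chosen for a ratio above 1 in all 4 libraries. That choice was made over the selected nuclei, which include most of the cluster.

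Further genes chosen by their ratio to other endothelium were Gpm6a (a neuronal membrane glycoprotein), Nrxn3 (a neurexin), Epha7 (an ephrin receptor), Col23a1 (a transmembrane collagen), Fgf14 (an intracellular regulator of sodium channels), Hand2os1 (the non-coding neighbour of Hand2) and Col4a3 (a type IV collagen chain). In the cluster their lowest ratio in any library was 40.5 for Gpm6a, 32.2 for Nrxn3, 20.6 for Epha7, 24 for Col23a1, 31.9 for Fgf14, 11.9 for Hand2os1 and 9.83 for Col4a3. The reads were not stated to be counted by strand, so Hand2os1 may share UMIs with overlapping transcripts.

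The 6 genes named as lower than in other endothelium were Cd36, Ccdc85a, Btnl9, Trpm3, Lama3 and Cyyr1. Cd36, the fatty acid transporter, was at 477, 282, 243 and 151 CPM in the cluster against 3056, 1491, 999 and 689 in other endothelium. Ccdc85a was at 191, 66.7, 172 and 69.8 CPM against 2793, 1575, 1253 and 805, and Btnl9, a butyrophilin-like membrane protein, had 2, 1, 9 and 0 UMIs in the cluster. The other genes had ratios over all selected nuclei of 0.296 to 0.53 for Trpm3 (a cation channel), 0.209 to 0.486 for Lama3 (a laminin chain) and 0.485 to 0.593 for Cyyr1. Over the selected nuclei these ratios lay closer to 1 than in the cluster for Cd36, at 0.534, 0.414, 0.578 and 0.519 against 0.156, 0.189, 0.243 and 0.219.

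How many endocardial nuclei each library held depended on how they were counted. By the marker rule they were 3.31% (interval 2.8 to 3.88) of WT and 5.16% (4.63 to 5.72) of Q150X nuclei without injury, and 8.79% (8.22 to 9.39) and 6.75% (6.21 to 7.32) at 3dpMI. Detection of 2 genes is easier in a deeper library. With every nucleus thinned to 500 UMIs the shares were 2.17% (1.76 to 2.64), 3.55% (3.11 to 4.03), 2.6% (2.28 to 2.95) and 1.55% (1.29 to 1.84), and 78.9%, 85.7%, 71% and 83.3% of the nuclei then selected were in the endocardial-like cluster. The cluster itself held 2.33% (1.9 to 2.82), 4.01% (3.55 to 4.52), 2.94% (2.6 to 3.31) and 1.9% (1.61 to 2.22) of nuclei. At equal depth and by cluster, Q150X homeostasis was therefore the highest and Q150X 3dpMI the lowest of the 4 libraries.

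After infarction, the share in WT hearts was 2.66 times that at homeostasis (2.23 to 3.16) by the rule, 1.2 times (0.948 to 1.52) at 500 UMIs and 1.26 times (1.01 to 1.58) by cluster. In Q150X hearts it was 1.31 times (1.15 to 1.49) by the rule but 0.437 times (0.353 to 0.542) at 500 UMIs and 0.473 times (0.388 to 0.575) by cluster, so the direction turned. Between genotypes the share ratio of Q150X over WT by the rule was 1.56 (1.29 to 1.89) without injury and 0.768 (0.692 to 0.852) after infarction, 1.64 (1.29 to 2.07) and 0.597 (0.482 to 0.739) at 500 UMIs, and 1.72 (1.38 to 2.16) and 0.645 (0.53 to 0.785) by cluster. These 2 directions held in all 3 counts, but a share also moves with the other nuclei. Among nuclei low in cardiomyocyte RNA, the homeostasis ratio of Q150X over WT by cluster was 1.24 (0.991 to 1.56) and that at 3dpMI 0.6 (0.493 to 0.731). Among blood vascular endothelial nuclei at 500 UMIs, endocardial nuclei were 18.3% (15.1 to 21.9), 28.1% (25 to 31.3), 11.7% (10.3 to 13.1) and 10.2% (8.55 to 12), and here the 3dpMI ratio of Q150X over WT was 0.872 (0.711 to 1.07). Which chambers were sampled was not stated, so a difference in dissection cannot be told apart from one in cell number.

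**Figure D3:**
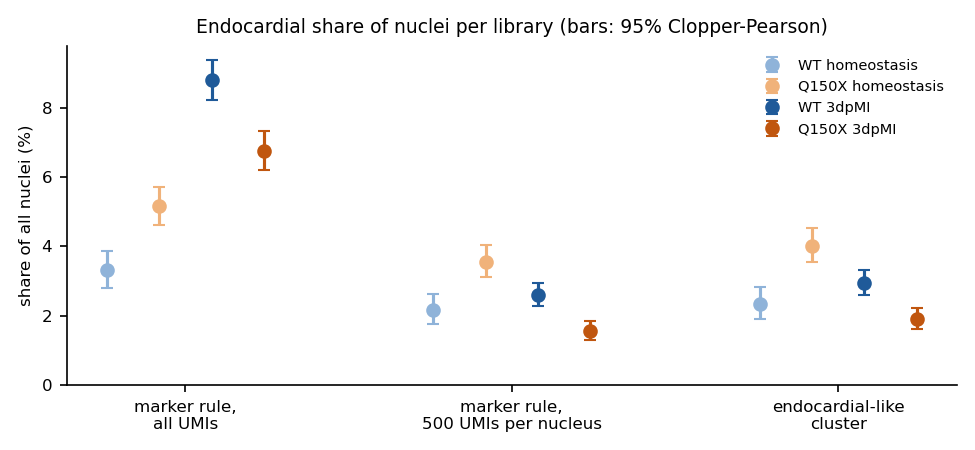
Share of all nuclei that were endocardial (vertical axis, %) by the marker rule on all UMIs, the rule after thinning to 500 UMIs, and the endocardial-like cluster, with 1 point per library and bars for exact 95% intervals. The infarction libraries stand highest under the first count, at 8.79% and 6.75%, and the Q150X infarction library stands lowest under the other two, at 1.55% and 1.9%.

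Nrg1 was among the 6 genes named as higher in Q150X in both genotype comparisons, over the selected nuclei and in the cluster. At 3dpMI it was also higher in Q150X in the nuclei that were not selected. Without injury its level over all selected nuclei was 430 CPM (69 UMIs) in WT and 1425 CPM (601 UMIs) in Q150X, and at 3dpMI it was 143 CPM (468 UMIs) and 409 CPM (1464 UMIs). In the cluster it was 1085, 2305, 681 and 2802 CPM, from 91, 622, 420 and 1284 UMIs. Both Q150X libraries were above both WT libraries in the cluster, with intervals of the counts that did not overlap.

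Q150X exceeded WT in Nrg1 by a ratio of 3.32 (2.58 to 4.32) without injury and 2.86 (2.57 to 3.18) after infarction over all selected nuclei, and 2.12 (1.7 to 2.68) and 4.11 (3.68 to 4.6) in the cluster. Nrg1 was among the genes used for clustering. With the clustering repeated without it, an alternative chosen after seeing the data, the cluster held 102, 258, 268 and 154 nuclei and the ratios were 2.16 (1.73 to 2.72) and 4.11 (3.68 to 4.6). Nrg1 UMIs came from few nuclei. The 5 nuclei highest in Nrg1 held 65.9%, 35.7%, 50% and 37.2% of its UMIs in the cluster, and the highest single nucleus had 22, 101, 87 and 144. Without those 5 the levels were 392, 1602, 355 and 1841 CPM and the ratios 4.08 (2.83 to 6.09) and 5.19 (4.45 to 6.07). With each nucleus weighted equally they were 2 and 4.49. Under each of these settings, and in the other alternatives tried, the Q150X library was the higher.

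The share of nuclei with an Nrg1 UMI gave the same order between genotypes. In the cluster it was 21.6%, 40%, 24.9% and 44.8%, and after thinning to 500 UMIs it was 16.7%, 32.3%, 11.2% and 27.9%. In other endothelial nuclei the thinned shares were 0.174%, 1.16%, 0.446% and 0.612%, and in nuclei rich in cardiomyocyte RNA 0.573%, 0.777%, 0.217% and 0%, with median depths before thinning of 696, 805, 1850 and 2462 UMIs in the cluster and 880, 766, 1570 and 2601 UMIs in other endothelial nuclei. The level in all nuclei outside the cluster was 8.12, 10.8, 13 and 49.9 CPM, so Q150X 3dpMI was also the highest there. In that library Nrg1 reached 131 CPM in a cluster led by Atp6v0a4 and Ltbp2, 140 in a cluster of dividing nuclei and 81 in the cluster led by Dkk2 and Adamts16, against 41.9, 52.5 and 19.4 in WT 3dpMI.

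Infarction and homeostasis did not differ in 1 direction for Nrg1. In WT the ratio of 3dpMI over homeostasis was 0.333 (0.258 to 0.435) over the selected nuclei and 0.628 (0.499 to 0.797) in the cluster, where it became 0.904 (0.618 to 1.36) without the 5 highest nuclei. In Q150X it was 0.287 (0.261 to 0.316) over the selected nuclei and 1.22 (1.1 to 1.34) in the cluster. The selected nuclei at 3dpMI were mostly from other clusters, where only 4.42% and 12.4% held an Nrg1 UMI.

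**Figure D4:**
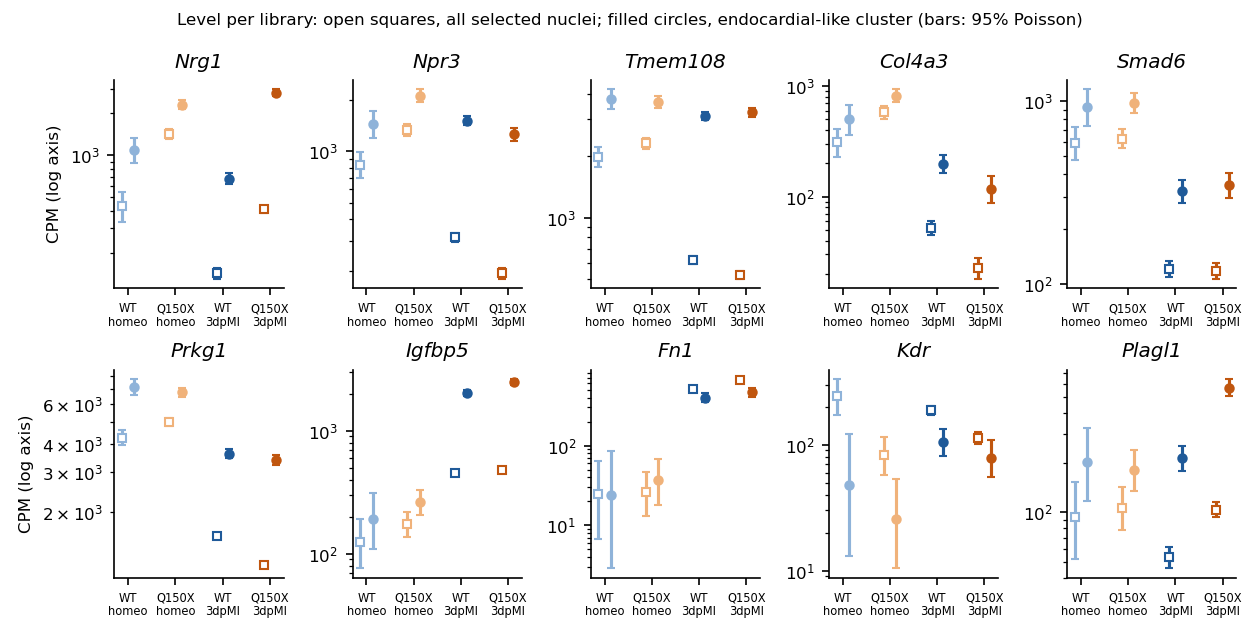
Level in CPM (log axis) of 10 genes in each library, over all selected nuclei (open squares) and in the endocardial-like cluster (filled circles), with bars for exact Poisson 95% intervals. In the cluster Nrg1 was higher in both Q150X libraries, Col4a3, Smad6 and Prkg1 were lower and Igfbp5 and Fn1 higher in both infarction libraries, and Plagl1 stood out in Q150X 3dpMI at 574 CPM.

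For the response to infarction a gene was measured if it had at least 30 UMIs over both libraries, and it was called past the fold at a CPM ratio of at least 2 or at most 0.5. Over the selected nuclei, 2503 of 10476 measured genes (23.9%) were past it in WT, 2033 higher and 470 lower, and 3225 of 11133 (29%) in Q150X, 2623 higher and 602 lower. In the cluster these were 994 of 4447 (22.4%), with 783 higher and 211 lower, and 707 of 4522 (15.6%), with 479 higher and 228 lower. Counts of list members below are to be read against these shares by direction: 19.4% higher and 4.49% lower in WT and 23.6% and 5.41% in Q150X over the selected nuclei, and 17.6% and 4.74% in WT and 10.6% and 5.04% in Q150X in the cluster. The median log2 ratio of all measured genes was 0.19 and 0.33 over the selected nuclei and 0.19 and 0.09 in the cluster. With that median scaled to 0, the share of higher among called genes over the selected nuclei went from 81.2% to 63.7% in WT and from 81.3% to 61.5% in Q150X. In WT, with at least 1000 UMIs in a nucleus, 1434 genes were called higher and 1569 lower (47.8% higher). At a minimum of 10 UMIs in a gene, 2033 were called higher and 2625 lower (43.6%). A gene with 0 UMIs in a library was set against 3 counts there. With 0 UMIs at homeostasis and few at 3dpMI, it could therefore be called lower. Sesn2, with 0 and 30 UMIs over the selected nuclei in WT, was called lower at a bound of at least 0.491. These lower calls thus cannot show whether the excess of higher calls held. Of the genes called higher over the selected nuclei and measured in the cluster, 62.5% in WT and 57.8% in Q150X were also called higher in the cluster. Of those called lower, 38% and 38.4% were also called lower there.

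In the cluster, Igfbp5, a secreted binding protein of insulin-like growth factors, was much higher after infarction. It was at 191 and 263 CPM without injury (WT and Q150X) and at 2014 and 2477 CPM at 3dpMI, ratios of 10.6 (6.48 to 18.5) and 9.41 (7.4 to 12.1). Its level in all other nuclei was 15.4, 28.8, 62.5 and 63.6, and in the cluster at 3dpMI it had a UMI in 136 of 269 and 91 of 154 nuclei. Plvap, the diaphragm protein of fenestrae and caveolae, was at 47.7, 107, 159 and 244 CPM, ratios of 3.33 (1.26 to 12.5) and 2.27 (1.5 to 3.55). Wnt9b, a Wnt ligand known from endocardium of the valves, was sparse, with 2, 2, 35 and 49 UMIs in the cluster.

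Of the BMP and TGF-beta pathway, 1 of 17 measured genes in the cluster was past the fold upward and 1 downward after infarction in WT, and 2 upward and 2 downward of 19 in Q150X, with medians of 0.12 and -0.24. Tgfbr2, a receptor of TGF-beta, was at 131, 233, 514 and 491 CPM, ratios of 3.92 (2.16 to 7.93) in WT and 2.1 (1.58 to 2.83) in Q150X. Sema3a, a secreted semaphorin, was at 59.6, 107, 324 and 347, ratios of 5.44 (2.29 to 16.9) and 3.23 (2.16 to 4.98), with 38.5% and 46.5% of its 3dpMI UMIs in 5 nuclei. Of the receptors of class 3 semaphorins, Plxnd1 had ratios past the fold in both genotypes, at 83.5, 141, 287 and 321 CPM. Nrp2, at 143, 204, 414 and 369 CPM, was past it in WT but not in Q150X (2.89 and 1.81). Nrp1 is given with the VEGF receptors below. Of the class 3 semaphorins and plexins, 4 of 8 measured genes were past the fold upward in WT and 3 of 7 in Q150X, with 0 lower and medians of 1.14 and 0.86 on the log2 scale. The medians of that list over the selected nuclei were 0.03 and 0.13.

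Among VEGF ligands and receptors, 3 of 8 measured genes in the cluster were higher past the fold in WT, and 2 of 8 higher and 1 lower in Q150X, with medians of 0.86 and 0.53. Kdr, the main signalling receptor of VEGF-A, was low in the cluster, at 47.7, 25.9, 105 and 78.6 CPM (4, 7, 65 and 36 UMIs). Flt1, its high-affinity partner, was at 692, 912, 811 and 1039 CPM, and Nrp1 at 501, 682, 707 and 705. None of the 9 measured genes of this list was past the fold between genotypes at 3dpMI in the cluster, where 4.9% of all measured genes were. Vegfa itself was low in the cluster, at 95.4, 37.1, 51.9 and 48 CPM from 8, 10, 32 and 22 UMIs, against 432, 383, 206 and 128 in all other nuclei. Q150X over WT was 0.389 (0.138 to 1.13) and 0.925 (0.512 to 1.64) there, and 0.904 (0.378 to 2.39) and 1.21 (0.978 to 1.5) over the selected nuclei. UMIs do not show which allele a transcript came from, so Vegfa levels do not check the genotype labels.

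Matrix genes of the scar were higher in both sets of nuclei, with larger values outside the cluster. Tnc, the wound protein tenascin C, had 0 UMIs in both homeostasis libraries over the selected nuclei and was at 428 and 647 CPM at 3dpMI. Against a floor of 3 counts in the library at 0, it was at least 22.9-fold higher in WT and at least 91-fold higher in Q150X. In the cluster it was at 0, 3.71, 122 and 74.2 CPM, at least 3.4-fold higher in WT and 20-fold higher (3.36 to 814) in Q150X, where homeostasis had 1 UMI. All other nuclei outside the cluster were at 2.07, 8.62, 420 and 610 CPM, above the cluster at 3dpMI.

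Fibrillar collagens and fibronectin followed the same order. Col1a1 was at 24.9, 49.8, 630 and 753 CPM over the selected nuclei and 47.7, 37.1, 396 and 456 in the cluster. Col3a1 was at 62.3, 121, 1107 and 1497 and at 71.5, 104, 483 and 596. Fn1, fibronectin, was at 23.8, 37.1, 399 and 463 CPM in the cluster, while all other nuclei were at 16.1, 22.4, 424 and 802. For each of these 3 genes the nuclei outside the cluster were higher still at 3dpMI, and the part of free RNA in the cluster's value was not tested. Of the list of fibrillar collagen and scar matrix, 15 of 22 measured genes were past the fold upward and 1 downward in WT over the selected nuclei, and 16 of 22 upward and 1 downward in Q150X. In the cluster these were 9 upward and 2 downward of 17, and 10 upward and 0 downward of 16, with medians of 1.12 and 1.18.

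Further genes named as higher after infarction over the selected nuclei were lower in the cluster at 3dpMI. Adam12, a disintegrin metalloprotease, was at 43.6, 14.2, 638 and 976 CPM over the selected nuclei but at 35.8, 29.6, 66.5 and 91.6 in the cluster. Kif26b, a kinesin, was at 24.9, 33.2, 695 and 1043 and at 47.7, 59.3, 334 and 615. Ltbp2, a latent TGF-beta binding protein, had 0, 0, 419 and 1119 UMIs over the selected nuclei and 0, 0, 18 and 13 in the cluster. Loxl3, a lysyl oxidase, had 2, 2, 251 and 607 UMIs over the selected nuclei and 0, 0, 8 and 10 in the cluster, and Gpr39, a zinc-sensing receptor, 1, 5, 590 and 851 and 0, 0, 10 and 9. For Adam12, Ltbp2, Loxl3 and Gpr39 the difference over the selected nuclei was thus carried by nuclei of other clusters, which also held the higher fibroblast markers given above.

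Of the list of endothelial to mesenchymal transition, 4 of 7 measured genes in the cluster were higher past the fold in WT and 5 of 7 in Q150X, 0 were lower, and the medians were 1.5 and 1.94. Vim, vimentin, was at 131, 163, 370 and 412 CPM there, with UMIs in 132 of 269 and 101 of 154 nuclei at 3dpMI. Tgfbi, a TGF-beta-induced matrix protein, was at 0, 22.2, 170 and 166, at least 4.76-fold higher in WT. Postn, periostin, was at 23.8, 3.71, 105 and 146 CPM, from 2, 1, 65 and 67 UMIs, and all other nuclei stood at 13.7, 32.8, 321 and 757. Fn1 and Postn are also fibroblast genes, and the named members were higher at 3dpMI in the other nuclei as well, where Vim went from 53.2 and 74.8 to 215 and 346 CPM and Tgfbi from 9.85 and 19.7 to 146 and 278.

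**Figure D5:**
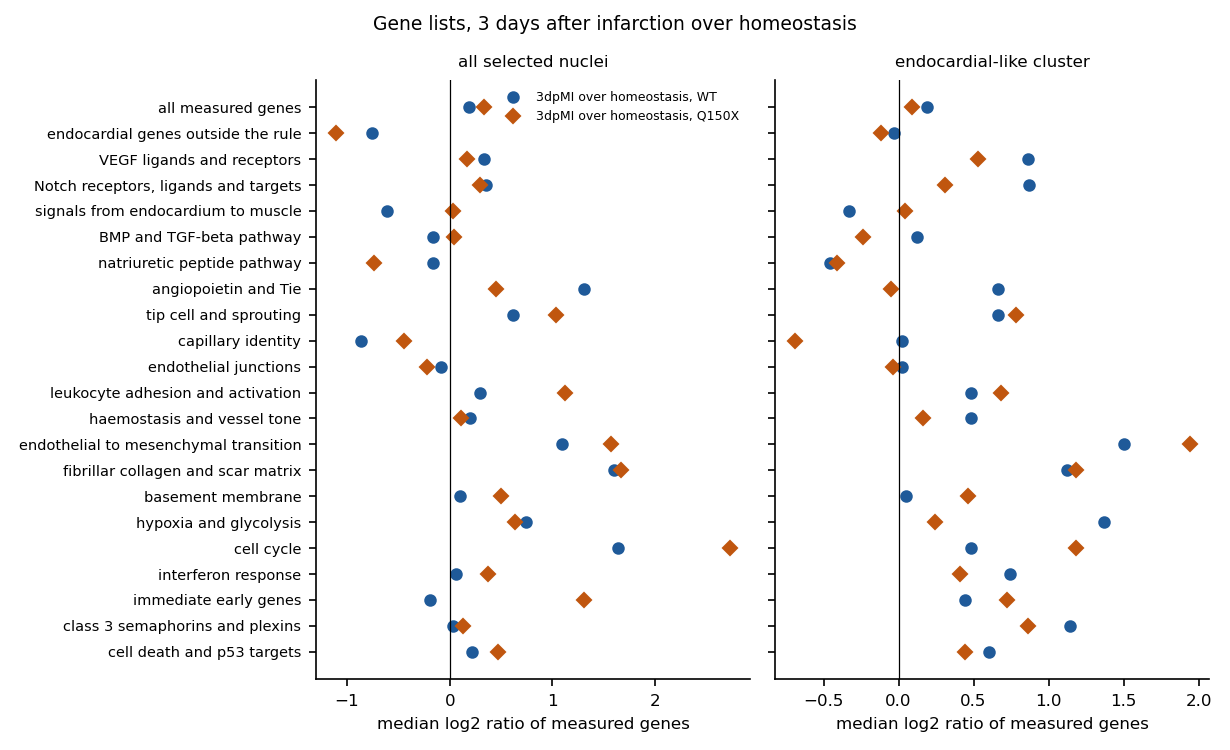
Median log2 ratio of 3dpMI over homeostasis (horizontal axis) for the measured genes of each list, with all measured genes in the top line, in WT (circles) and Q150X (diamonds), over all selected nuclei (left) and in the endocardial-like cluster (right). Scar matrix and mesenchymal transition lie at the right in both panels (1.09 to 1.94), while endocardial genes outside the rule lie at -0.76 and -1.11 on the left and at -0.03 and -0.12 on the right.

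Of 26 cell cycle genes, 18 of the 25 measured were past the fold upward in WT and 24 of 26 in Q150X over the selected nuclei, with medians of 1.64 and 2.73 and 0 lower. In the cluster only 5 of the 26 genes had enough UMIs, of which 0 in WT and 3 in Q150X were past it, with medians of 0.48 and 1.18 and 4 of 5 and 5 of 5 ratios above 1. The cluster has far fewer UMIs, which limits how many genes are measured. Top2a, a topoisomerase of dividing cells, had 0, 2, 24 and 15 UMIs in the cluster and 0, 5, 269 and 382 over the selected nuclei.

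Lower after infarction in the cluster were the basement membrane chains Col4a3 and Col4a4, which assemble together. Col4a3 was at 501, 819, 198 and 118 CPM, ratios of 0.395 (0.276 to 0.575) in WT and 0.144 (0.105 to 0.195) in Q150X. Col4a4 was at 715, 878, 311 and 153 CPM, ratios of 0.435 (0.324 to 0.592) and 0.174 (0.131 to 0.228). Both genes were also lower in all other nuclei, where Col4a3 was at 71.2, 144, 13.7 and 7.3 CPM. Over the selected nuclei the ratios were 0.168 and 0.0391 for Col4a3 and 0.188 and 0.0596 for Col4a4, further from 1 than in the cluster.

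The BMP inhibitor Smad6 was at 930, 982, 321 and 347 CPM in the cluster, ratios of 0.345 (0.264 to 0.455) and 0.353 (0.288 to 0.432), while all other nuclei were at 59.1, 34.2, 56.2 and 50.3. Eln, elastin, was at 990, 1038, 365 and 526, ratios of 0.369 (0.285 to 0.48) and 0.507 (0.425 to 0.604). Itgbl1, an integrin beta-like secreted protein, was at 1681, 1542, 594 and 663, ratios of 0.353 (0.29 to 0.432) and 0.43 (0.37 to 0.5). For these 3 genes both infarction libraries lay below both homeostasis libraries. Other genes chosen as lower were Dlg2 (a synaptic scaffold), Eda (ectodysplasin), Pde10a (a phosphodiesterase), Smpd3 (a neutral sphingomyelinase), Plac9, Ripor2 and Hpgd (the enzyme that degrades prostaglandins). Their cluster ratios in WT and Q150X were 0.151 and 0.249 for Dlg2, 0.255 and 0.267 for Eda, and 0.277 and 0.2 for Pde10a. They were 0.401 and 0.253 for Smpd3, 0.325 and 0.135 for Plac9, 0.355 and 0.215 for Ripor2, and 0.395 and 0.254 for Hpgd. In nuclei that were not selected, the WT and Q150X ratios were 0.692 and 0.295 for Eln and 0.784 and 0.715 for Itgbl1. There Dlg2 had 0.7 and 0.792, Eda 0.373 and 0.267, Pde10a 0.539 and 0.54, and Ripor2 0.625 and 0.987. Smpd3 had 1.5 and 0.839, Plac9 1.13 and 0.318, and Hpgd 1.8 and 0.836.

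Of the natriuretic peptide pathway, Prkg1, the kinase activated by cyclic GMP, was at 7130, 6756, 3622 and 3395 CPM in the cluster, ratios of 0.508 (0.464 to 0.557) and 0.503 (0.469 to 0.538), with UMIs in 95 of 102, 252 of 260, 253 of 269 and 150 of 154 nuclei. Pde3a, a phosphodiesterase that cyclic GMP inhibits, was at 3589, 2928, 1663 and 1927 CPM. Both were also lower in all other nuclei, where Prkg1 went from 1750 and 2056 to 1319 and 884 CPM. In WT 1 of 6 measured genes of this list was past the fold upward and 2 downward, and in Q150X 1 upward and 0 downward of 6. Over the selected nuclei 2 of 9 were upward and 3 downward in each genotype. In both, 1 of the 3 downward was Npr3, a gene of the rule, whose level there is a description only.

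For endocardial genes outside the rule the choice of nuclei decided the picture. Over the selected nuclei 1 of 12 measured genes was higher and 4 lower after infarction in WT, and 1 higher and 7 lower of 12 in Q150X, with medians of -0.76 and -1.11. In the cluster 1 of 11 was higher and 0 lower in WT, and 1 higher and 1 lower of 12 in Q150X, with medians of -0.03 and -0.12. Nfatc1, the transcription factor of valve endocardium, was at 298, 304, 324 and 212 CPM in the cluster. Gata6 was at 215, 300, 162 and 264, Ednrb, an endothelin receptor, at 179, 196, 305 and 314, and Bmx, a kinase of endothelium, at 441, 441, 214 and 290. Chrm3 and Gpm6a were lower in the cluster too, with ratios of 0.702 and 0.405 for Chrm3 and 0.51 and 0.449 for Gpm6a. Both were also lower in nuclei that were not selected, at 0.607 and 0.172 for Chrm3 and 0.232 and 0.191 for Gpm6a.

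Some of the most extreme ratios were shared by the whole library. Camk1d, a calmodulin-dependent kinase, was at 107, 378, 2950 and 2666 CPM in the cluster and 254, 419, 2376 and 2677 in all other nuclei. Cmss1 was at 1860, 3513, 23801 and 27170 in the cluster and 1321, 2600, 16093 and 20237 elsewhere, and Cdk8, a kinase of the Mediator complex, at 143, 367, 2830 and 2250 against 281, 440, 2186 and 1832. Mb, myoglobin of muscle, was at 107, 193, 92.5 and 17.5 against 94, 178, 98.3 and 32.1. For these 4 genes the order of the libraries was close to the same inside and outside the cluster. Myh11, the smooth muscle myosin, had 6, 52, 70 and 12 UMIs over the selected nuclei and 0, 1, 3 and 0 in the cluster. Of the genes chosen as higher in the cluster, Capza1 (an actin capping protein) was at 0, 85.2, 138 and 124 CPM, and Tmsb4x (thymosin beta 4) at 35.8, 25.9, 89.2 and 179 while all other nuclei were at 36.8, 31.2, 90.4 and 154. Cmah, a sialic acid enzyme, was at 11.9, 37.1, 107 and 277 CPM with 73.2% of its Q150X 3dpMI UMIs in 5 nuclei.

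Between genotypes fewer genes were past the fold. At homeostasis they were 292 of 3732 measured genes (7.82%) over the selected nuclei, 210 higher (5.63%) and 82 lower (2.2%) in Q150X, and 191 of 2376 (8.04%) in the cluster, 148 higher (6.23%) and 43 lower (1.81%). At 3dpMI they were 469 of 12497 (3.75%), 278 higher (2.22%) and 191 lower (1.53%), and 296 of 6035 (4.9%), 129 higher (2.14%) and 167 lower (2.77%). With the median ratio scaled to 0 the share of higher among the called genes over the selected nuclei went from 59.3% to 47.7% at 3dpMI and from 71.9% to 66.1% at homeostasis. With doublets removed it was 49.9% at 3dpMI. Of the genes called higher over the selected nuclei at 3dpMI and measured in the cluster, 32.3% were called there too.

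At homeostasis the genes higher in Q150X included several of macrophages. Apoe, apolipoprotein E, was at 24.9 and 180 CPM over the selected nuclei (WT and Q150X, from 4 and 76 UMIs) and 23.8 and 230 in the cluster (2 and 62 UMIs), while all nuclei outside the cluster were at 17.3 and 69.7. Mrc1, a macrophage scavenger receptor, was at 31.1 and 159 over the selected nuclei, with a ratio of 5.1 (2.08 to 16.2), and its 30 UMIs in the Q150X cluster lay to 76.7% in 5 nuclei. Stab1, another scavenger receptor, was at 47.7 and 182 in the cluster, and Arhgap15 at 18.7 and 119 over the selected nuclei. In nuclei that were not selected, the ratio of Q150X over WT was 2.57 for Mrc1, 3 for Stab1 and 1.37 for Arhgap15. Macrophage or monocyte markers summed to 318 and 809 CPM in these libraries' selected nuclei, with 6 and 2 of 12 at 0. In other endothelial nuclei they summed to 337 and 933 CPM, with 2 and 1 of 12 at 0. The part of these markers in the results was not tested.

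Rbpj, the transcription factor of the Notch pathway, was at 125, 406, 354 and 313 CPM over the selected nuclei and 107, 263, 485 and 227 in the cluster. In the cluster the ratio of Q150X over WT was 2.45 (1.22 to 5.58) without injury and 0.468 (0.371 to 0.587) after infarction. In the cluster 77.8%, 45.1%, 58.2% and 42.3% of its UMIs lay in 5 nuclei, and all other nuclei were at 170, 335, 503 and 484 CPM. Ctsh, a cathepsin, was at 131 and 363 CPM in the cluster at homeostasis, a ratio of 2.77 (1.48 to 5.73), while all other nuclei were at 11.6 and 17. Adipor2, an adiponectin receptor, was at 131 and 359 there, a ratio of 2.74 (1.47 to 5.67), but its ratio over the selected nuclei was 1.22 (0.83 to 1.82).

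Lower in Q150X at homeostasis over the selected nuclei were genes that other endothelium carried at higher levels. Cd36 was at 1632 and 617 CPM, Pparg, a lipid-sensing nuclear receptor, at 436 and 126, Pdgfd, a platelet-derived growth factor, at 1762 and 624, Myo10, a filopodial myosin, at 803 and 199, and Eepd1 at 336 and 80.6. In the cluster these genes were at 477 and 282, 71.5 and 37.1, 358 and 271, 131 and 77.8, and 83.5 and 25.9. Other endothelial nuclei were higher than both, at 3056 and 1491 CPM for Cd36. Of the capillary identity list, 5 of 9 measured genes were lower and 0 higher over the selected nuclei, with a list median of -1.09. Of all measured genes 2.2% were lower there. In the cluster 0 of 3 was past the fold, with a list median of -0.65, and 1.81% of all measured genes were lower. With only 3 of the 15 genes measured, that count cannot show whether the list differed in the cluster. Gphn, gephyrin, was lower in Q150X in the cluster, at 7607 and 2627 CPM, and in all other nuclei, at 4869 and 1796.

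Further genes lower in the Q150X cluster at homeostasis rested on few nuclei. Nav2, a neuron navigator, was at 358 and 74.1 CPM, but 96.7% of its WT UMIs lay in 5 nuclei and without the 5 highest nuclei of each library the ratio turned to 1.78 (0.216 to 81.9). Dach1, a transcription factor, was at 382 and 88.9 CPM with 59.4% of its WT UMIs in 5 nuclei, and Lsamp, a neural adhesion molecule, at 334 and 130 with 64.3%. Mcf2l and Xrcc4 had ratios of 0.414 (0.258 to 0.672) and 0.449 (0.268 to 0.763).

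At 3dpMI the cluster of Q150X was higher in Plagl1, an imprinted zinc finger gene. It was at 203 and 214 CPM in the WT libraries (homeostasis and 3dpMI) and at 182 and 574 CPM in the Q150X libraries, so that 1 library stood apart from the other 3. The ratio of Q150X over WT was 2.68 (2.17 to 3.33) at 3dpMI and 0.896 (0.507 to 1.66) at homeostasis, 31.2% of the Q150X 3dpMI UMIs lay in 5 nuclei, and all other nuclei were at 11.2 and 20.6 CPM at 3dpMI. Igf2, an imprinted growth factor, had 0, 0, 8 and 26 UMIs in the cluster, a ratio of 4.37 (1.92 to 11.2) at 3dpMI, with 46.2% of the 26 in 5 nuclei.

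Other genes higher in the Q150X cluster at 3dpMI were Ptprd, a receptor phosphatase, at 73 and 244 CPM (3.35, 2.35 to 4.84), Ephx2, soluble epoxide hydrolase, at 82.7 and 240 (2.9, 2.06 to 4.13), and Selp, the leukocyte adhesion molecule P-selectin, at 29.2 and 107 (3.66, 2.1 to 6.68). In 5 nuclei lay 48.2%, 38.2% and 63.3% of their Q150X 3dpMI UMIs. Lower were Stard8, at 208 and 85.1 CPM (0.41, 0.279 to 0.591), Kcnc2, a potassium channel, at 1015 and 526 (0.518, 0.445 to 0.602), and Col25a1, a collagen, at 120 and 45.8 (0.382, 0.223 to 0.627). Tango6 had a ratio of 0.285 (0.134 to 0.552) and Kcnq5, another potassium channel, 0.0944 (0.0249 to 0.255), the latter with 70.2% of its 57 WT UMIs in 5 nuclei. Ptn, pleiotrophin, was at 79.5 and 17.5 CPM in the cluster but at 33.6 and 74.8 over the selected nuclei, in the opposite direction.

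Over all selected nuclei the 3dpMI genotype genes other than Nrg1 were mostly not genes of the cluster. Adamts16, a metalloprotease, had 12 and 85 UMIs in WT and Q150X and Bmpr1b, a BMP receptor, 29 and 125, and both had 0 in the cluster in either library. Saa3 (a serum amyloid), Thbs4 (a thrombospondin) and Sfrp2 (a Wnt inhibitor) had ratios of 7.57, 4.52 and 5.57 over the selected nuclei, and 3 and 7, 2 and 4, and 2 and 6 UMIs in the cluster. Lower were Opcml, Rgs5, Timp4, Nkain2 and C7, with ratios of 0.116, 0.298, 0.228, 0.282 and 0.362, and their UMIs in the WT 3dpMI cluster numbered 5, 23, 5, 10 and 2. Slco1a4, an organic anion transporter, was the exception, with 29 and 6 UMIs in the cluster and a ratio of 0.278 (0.0945 to 0.682). Of the capillary identity list, 6 of 15 measured genes were lower and 0 higher over the selected nuclei, with a list median of -0.93. Of all measured genes 1.53% were lower there. In the cluster 0 of 6 was past the fold, with a median of -0.61, and 2.77% of all measured genes were lower. The pericyte markers moved alongside over the selected nuclei, from 917 CPM in WT to 628 in Q150X, and their part was not tested.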

How the data were processed

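The deposited values are raw UMI counts per gene and nucleus over 33954 features, written by Cell Ranger 7.1.0 per the file headers. The submitters' processing notes name the genome build GRCm39 and Scanpy, and the settings of barcode filtering are not given in the sources used here. No normalized values of the authors were used.

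Nuclei were selected by the marker rule given above. The members, gene lists and tests were chosen with earlier results of these data known. All nuclei were also clustered with Scanpy 1.11.5 (2000 variable genes, 30 principal components, 15 neighbours, Leiden resolution 1), and a cluster was named only with at least 3 fixed markers among its 10 leading genes. Doublets were called with Scrublet per library. Its automatic threshold was used in WT homeostasis and Q150X 3dpMI. In the other two it marked 0.0154% and 0% of nuclei, and a rate of 0.8% per 1000 nuclei replaced it. Called doublets stayed in, and leaving them out was an alternative. Other endothelial nuclei were those with at least 2 of the 6 endothelial genes that were not selected.

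Counts were summed per library and scaled to CPM. Ratios of CPM carry exact 95% intervals and shares Clopper-Pearson intervals. Ratios of shares carry 95% intervals from a normal approximation on the log scale. With 1 library in each group no count model was fitted and no p-value computed. In each comparison the 6 highest and 6 lowest genes were named, ranked by the interval bound that lay nearest to 1. A named gene needed at least 50 UMIs and a CPM no lower than in all other nuclei. Also named were 12 genes above and 6 below other endothelium, up to 3 members at each end of a list, Vegfa, Nrg1 and the genes of the rule. Some further list members were named after their values were seen. The ratio calculation was tested on simulated counts. Alternatives changed the marker, depth, mitochondrial and cardiomyocyte limits, doublets, weights, scaling, the UMI minimum and the set of nuclei.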

Additional observations from a re-analysis of the deposited data

Results flagged for a closer look

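Some ratios of Q150X over WT lay on opposite sides of 1 at homeostasis and at 3dpMI. With 1 library in each group these differences were not tested. The share of endocardial nuclei had ratios of 1.56 and 0.768 by the marker rule, 1.64 and 0.597 at 500 UMIs, and 1.72 and 0.645 by cluster. By cluster the ratio of 3dpMI over homeostasis was 1.26 in WT and 0.473 in Q150X over all nuclei. Among nuclei low in cardiomyocyte RNA it was 0.879 (0.701 to 1.1) and 0.424 (0.348 to 0.517), below 1 in both. Among blood vascular endothelial nuclei at 500 UMIs the ratio by the rule was 0.637 (0.513 to 0.792) and 0.362 (0.297 to 0.442).

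Col4a3, a type IV collagen chain, had ratios of Q150X over WT of 1.86 at homeostasis and 0.433 at 3dpMI over the selected nuclei, and 1.64 and 0.595 in the cluster. Rbpj, the Notch pathway transcription factor, had 3.26 and 0.883, and 2.45 and 0.468 in the cluster. Camk1d had 3.87 and 0.838, and 3.52 and 0.904 in the cluster. Cdk8 had 1.72 and 0.639, and 2.56 and 0.795 in the cluster. For Gphn it was infarction over homeostasis that differed, with 0.7 in WT and 1.99 in Q150X over the selected nuclei and 0.918 and 3.09 in the cluster. In all nuclei outside the cluster the same ratios were 1.65 and 1.13 for Camk1d, which there lay above 1 in both, 1.57 and 0.838 for Cdk8, and 1 and 3.12 for Gphn. Col4a3 and Rbpj lay on opposite sides of 1 also in all nuclei that were not selected. Their ratios of Q150X over WT there were 2.04 and 0.542 for Col4a3 and 1.93 and 0.963 for Rbpj.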

How the results depend on the processing

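No paired analysis was possible because each group holds 1 library and the labels give no shared replicate numbers. The cause of the differences between settings was not tested. For the share of endocardial nuclei, thinning to 500 UMIs gave 1.2 (infarction, WT), 0.437 (infarction, Q150X, reversed) and 0.597 (Q150X over WT, 3dpMI). Removing doublets gave 1.09 (infarction, Q150X) and 0.675 (Q150X over WT, 3dpMI), requiring 3 genes 1.48 and 0.736 (reversed) for infarction in WT and Q150X, and at least 1000 UMIs 3.97 and 1.68. The cluster gave 1.26, 0.473 (reversed) and 0.645, and the cluster made without Nrg1 1.26, 0.476 (reversed) and 0.647.

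The counts of genes past 2-fold follow in the order infarction WT, infarction Q150X, genotype at homeostasis, genotype at 3dpMI. They were 1368, 2071 and 164 (first 3) with 3 genes required, 909 (last) with nuclei weighted equally, 4658, 1256 and 1193 (all but the second) at a minimum of 10 UMIs, and 1323, 1620, 41 and 146 at 100 UMIs, where fewer genes were measured. Nuclei selected at 500 UMIs gave 762, 612 and 164 (first 3). The cluster gave 994, 707, 191 and 296, without doublets 752, 563, 186 and 285, weighted equally 1047 and 751 (first 2), and made without Nrg1 1007, 699 and 294 (all but the third).

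Nrg1 after infarction in WT turned to 1.04 with at least 1000 UMIs. In Q150X it turned to 1.23 in nuclei selected at 500 UMIs, 1.22 in the cluster, 1.29 without doublets there, 1.13 weighted equally, 1.21 in the cluster made without Nrg1 and 1.15 without the 5 highest nuclei. Nav2 at homeostasis turned to 1.78 without the 5 highest nuclei of the cluster and Pdgfd to 1.01 with 3 genes required. Ptn at 3dpMI turned to 0.267 at 500 UMIs, 0.22 in the cluster, 0.487 without doublets there, 0.404 weighted equally and 0.22 without Nrg1. The tip cell list at homeostasis (median 0.04) and the capillary list in WT infarction (0.02) turned in the cluster. These medians rest on 2 and 6 measured genes there, against 4 and 14 over the selected nuclei, so different genes are compared. Of 67 named ratios measurable in the cluster, 45 moved beyond their interval, 2 reversed and 20 did not; with doublets removed, 18 of 83 moved. Alternatives for the cluster without doublets, weighted equally, without the 5 highest nuclei and made without Nrg1 were chosen after seeing the data. Depth limits the homeostasis cluster most, with 83871 UMIs in WT.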

Other observations

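Of Notch receptors, ligands and targets, 2 of 7 measured genes in the cluster were past the fold upward after infarction in WT and 1 of 7 in Q150X, with 0 lower. Jag1, a Notch ligand, was at 35.8, 40.8, 101 and 105 CPM (WT homeostasis, Q150X homeostasis, WT 3dpMI, Q150X 3dpMI), from 3, 11, 62 and 48 UMIs, and all other nuclei were at 26.1, 38.5, 75.2 and 105. Notch1 was at 322, 274, 422 and 351 CPM. Of hypoxia and glycolysis genes, 6 of 11 were past the fold upward in WT and 5 of 13 in Q150X, with 0 lower and medians of 1.37 and 0.24. Ddit4, an inhibitor of mTOR signalling, was at 23.8, 22.2, 94.1 and 120 CPM, and Hif1a, the hypoxia-induced transcription factor, at 119, 77.8, 143 and 216.

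Of signals from endocardium to muscle, 3 of 10 measured genes were higher and 0 lower in Q150X at 3dpMI in the cluster. Over all measured genes 2.14% were higher and 2.77% lower there. The 3 were Igf2, Edn1 and Nrg1, of which Igf2 and Nrg1 had already been named above from this same comparison. Edn1, endothelin 1, had 0, 6, 19 and 33 UMIs there, a ratio of 2.34 (1.29 to 4.35) at 3dpMI. Vcam1, a leukocyte adhesion molecule, was at 107, 241, 141 and 231 CPM, and Q150X exceeded WT by a ratio of 2.24 (1.11 to 5.13) without injury and 1.64 (1.22 to 2.2) after infarction. Rsad2, an interferon-induced antiviral gene, had 0, 4, 2 and 30 UMIs in the cluster, with 80% of the 30 in 5 nuclei.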
